A study of Drosophila melanogaster with 14 samples.

Results

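The loss of mip40 was examined within bam mutant testes, by setting both libraries of the double mutant mip40/bam against both libraries of the bam mutant. These are 4 of the 14 libraries of the series, chosen by genotype. The series profiled polyadenylated RNA from whole testes of Drosophila melanogaster males in 7 genotypes with 2 biological replicates each, and the other 10 libraries (mip40, comr, can, CG9879 and wt) are used here for the pooled spread and for levels, and mip40 and wt also for a comparison of their own. Each library was made from 50 testes of 3-day-old males kept at 23 °C. Both groups carry the bam mutation, so the comparison adds a mip40 mutation to testes that already lack bam function. Which alleles were used is not stated. Gene levels are FPKM, fragment numbers divided by transcript length and by library size. Of 16078 genes that could be joined between the tables, 12971 passed a filter on low values and were tested.

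mip40 encodes a small subunit that is found in dREAM, a chromatin complex built around Myb, E2F and Rb-family proteins, and in tMAC, the testis form of that complex. tMAC and the testis TBP-associated factors (tTAFs) switch on the genes of spermatocytes, the germ cells that prepare for meiosis. bam ends the divisions of spermatogonia, the earlier germ cells, so testes without it accumulate spermatogonia and make hardly any spermatocytes. The comparison therefore concerns mip40 mutation in testes with few spermatocytes, where tMAC usually acts.

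The labelled tissue was checked first. zpg, a germline gap junction gene, had 308 and 322 FPKM in mip40/bam against 339 and 303 FPKM in bam, and vas, a germline RNA helicase, had 428 and 424 FPKM against 538 and 530 FPKM. Their wt levels were 7.72 and 5.86 FPKM for zpg and 15.1 and 16.4 FPKM for vas, far below both groups. Levels set against wt or CG9879, also those of these groups, carry a scaling difference, taken up with the last comparison. The factors of median-of-ratios scaling were 0.575 and 0.551 in wt and 0.57 and 0.542 in CG9879. In mip40/bam they were 1.2 and 1.21, and in bam 1.22 and 1.26. The 29 spermatid differentiation genes summed to 43.0 and 46.3 FPKM in mip40/bam and 46.1 and 24.2 FPKM in bam, against 59507 and 57810 FPKM in wt. Of 8 genes on the Y chromosome that are switched on in spermatocytes, none reached 1 FPKM in any of the 4 libraries. Both groups were thus rich in early germline RNA and poor in spermatid RNA.

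mip40 (FBgn0034430, chromosome 2R, 19291105 to 19292196) had 25.8 and 27.4 FPKM in mip40/bam against 59.1 and 60.4 FPKM in bam. The groups did not overlap, and the log2 fold change on the log2(FPKM + 1) scale used throughout was -1.14 (SE 0.07, limma adjusted p = 6.3e-06). RNA of the mutated gene was thus reduced but not absent. In the mip40 single mutant it had 20.8 and 20.2 FPKM against 22.8 and 20.9 FPKM in wt. The median-of-ratios factors were 1.23 and 1.21 in mip40 and 0.575 and 0.551 in wt. With that scaling the levels in the single mutant lie below those of wt, so the FPKM do not show an unchanged level. bam (FBgn0000158, chromosome 3R) had 0.913 and 0.665 FPKM in mip40/bam, and 2.91 FPKM in bam replicate 1 with replicate 2 listed at 0, a difference within the spread (log2 difference -0.15, SE 0.50, limma adjusted p = 0.991). The uneven bam pair decided this value: it was 0.84 without bam replicate 1 (limma adjusted p = 0.0211) and -1.13 without bam replicate 2 (limma adjusted p = 0.0046). CG11854, a gene whose exons overlap those of bam, was listed at 0 in both mip40/bam libraries and had 21.3 and 46.8 FPKM in bam. It was also listed at 0 in the 10 libraries of the other genotypes, so the bam libraries stood apart from the rest at this locus.

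With a call at a limma adjusted p under 0.05, 4682 of 12971 genes (36.1%) differed between mip40/bam and bam, 2127 (16.4%) higher and 2555 (19.7%) lower in mip40/bam. At least 2-fold changes were called for 711 genes (5.48%) that were higher and 790 (6.09%) that were lower. The gene annotation and the length of the transcripts both bear on these counts.

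The per-library tables of mip40/bam use another annotation than those of bam, while the authors' deposited table of this comparison uses 1 annotation for both. Of 4381 called genes with rows in the authors' deposited table, 99.2% went the same way there. In 154 of them the change differed by more than 1 log2 unit from that of the authors' deposited table, and 143 of these share exons with another gene. In 126 of the 154, both libraries of 1 group were listed at 0. Neb-cGP had 885 and 738 FPKM in mip40/bam and was listed at 0 in both bam libraries, whereas its log2 ratio was 1.21 in the authors' deposited table. Mes-4, a histone methyltransferase gene, was listed at 0 in both mip40/bam libraries and had 84.6 and 84.8 FPKM in bam, with a log2 ratio of -0.62 in the authors' deposited table. The planned rule for naming genes, the largest changes among called genes, picked 40 genes, of which 38 share exons, 37 were listed at 0 in both libraries of a group and 36 differed by more than 1 log2 unit from the authors' deposited table. For genes listed at 0 in both libraries of a group, no fold change from the per-library tables is given here. Interaction terms of such genes are printed only among the results flagged for a closer look.

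**Figure D1:**
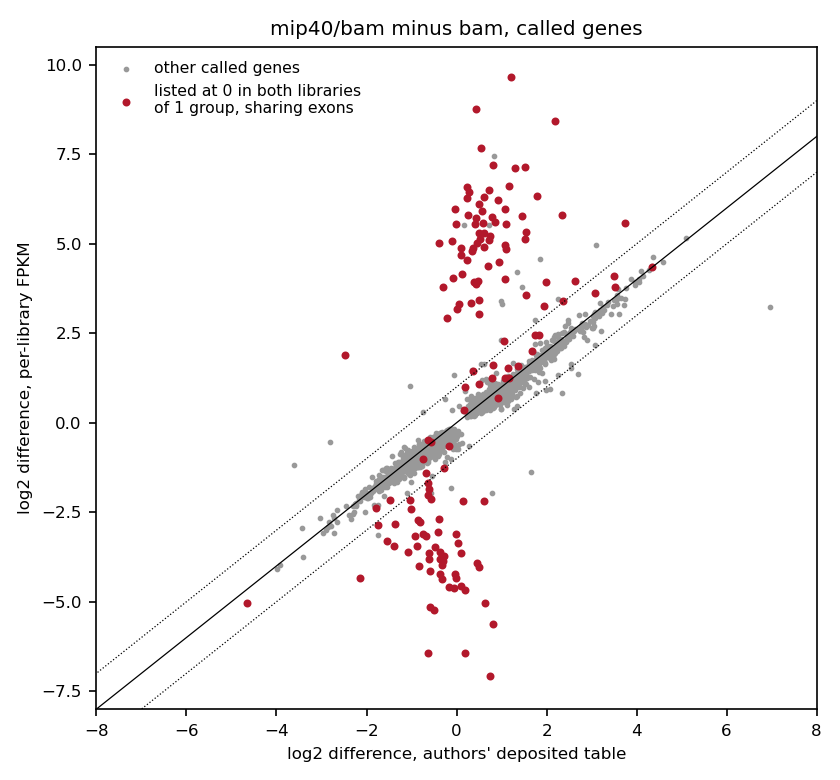
Log2 difference of mip40/bam minus bam from the per-library FPKM tables (y axis) against the authors' deposited table (x axis), for 4381 called genes; the solid line marks equality and the dotted lines a distance of 1 log2 unit. Most points lie between the dotted lines, and the 149 red genes, which share exons and are listed at 0 in both libraries of a group, mostly stand above or below them.

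The change also followed transcript length. Among 6151 protein-coding genes with at least 5 FPKM in the 4 libraries, ordered by their longest spliced transcript in the BDGP6.54 annotation, the median log2 difference was 0.63 in the shortest of 10 equal classes (165 to 856 bases) and -0.93 in the longest (5302 to 27842 bases). In the shortest class 61.0% of genes were called higher and 1.62% lower in mip40/bam, and in the longest class 1.63% were called higher and 89.4% lower. The medians in the authors' deposited table were 0.76 and -0.82 in the same classes, although that table uses 1 annotation. The Spearman correlation of difference and length over these genes, which are not independent replicates, was -0.73. Between replicates the trend was small, from -0.05 to 0.06 in mip40/bam and from 0.10 to -0.08 in bam. An adjustment that removes a smooth length trend from each of the 4 libraries, added after the trend was seen, left medians of -0.01 to 0.05 in the classes and called 2695 of 12759 genes (21.1%), 1387 (10.9%) higher and 1308 (10.3%) lower. Implied depth also differed, at 7690000 and 7140000 fragments in mip40/bam against 4910000 and 4460000 in bam. The trend was thus present with 1 annotation as well as with 2. Genotype and depth cannot be told apart here, and the cause of the trend was not tested. A fold change without length adjustment therefore includes this trend, most of all for short and long transcripts. The counts of gene lists below stand beside 16.4% higher and 19.7% lower of all genes, and 10.9% and 10.3% with length adjustment. No list was tested as a set.

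**Figure D2:**
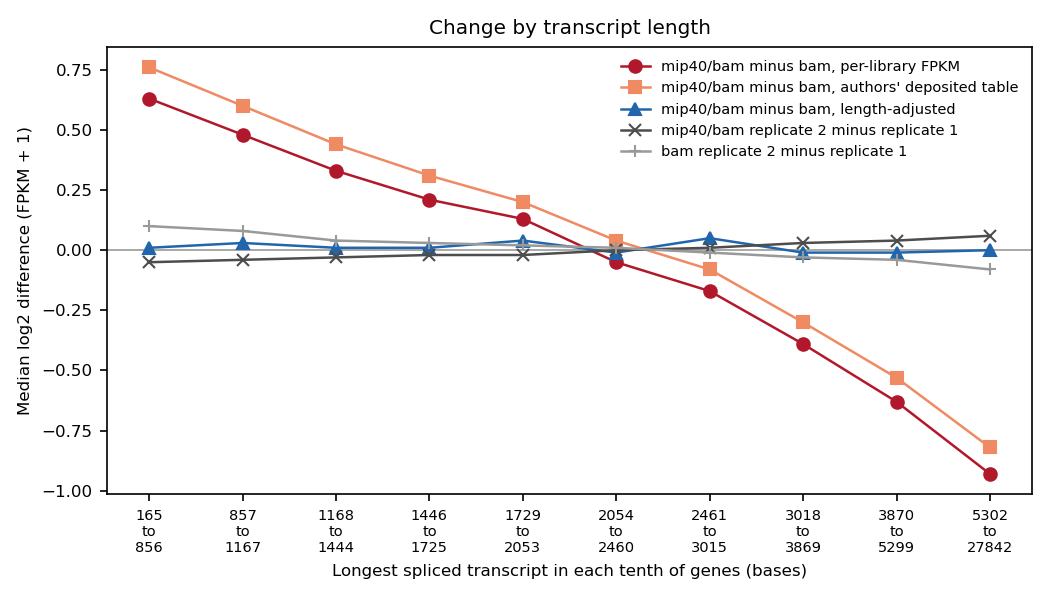
Median log2 difference on the FPKM + 1 scale (y axis) in 10 classes of 6151 genes ordered by transcript length in bases (x axis). The difference of mip40/bam minus bam runs from 0.63 to -0.93 across the classes, close to that of the authors' deposited table, while the length-adjusted medians and the differences between replicates stay near 0.

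A strict rule was therefore used to describe single genes, chosen after these patterns were seen. It asked for a call and at least a 2-fold change, both in the per-library fit and with length adjustment. It also asked for at least a 2-fold change in the authors' deposited table, in the same direction and within 1 log2 unit. No call in that table was asked for. For example, Arp53D, Rpn12R, CG9406, CG9875, BBS1, y and CG11854 passed the rule with lowest Cuffdiff q-values of 0.191 to 0.389 there. Prosbeta2R2, GstD5 and pAbp, among others, had a lowest Cuffdiff q-value of 0.000382. Of 10674 genes with rows in that table and a known length, 332 (3.11%) were higher and 167 (1.56%) lower in mip40/bam by this rule, 4.67% in all. In all 499 the libraries of the groups did not overlap, which was also true of 62.7% of all genes tested. Of the 332 higher genes, 191 had their highest mean FPKM of the 7 genotypes in mip40/bam, and 163 with median-of-ratios scaling. Of the 167 lower genes, 103 had their highest mean in bam, and 96 with that scaling. The rule itself asks for a higher level in 1 of these groups, which favours that group as the highest. These counts are therefore no test of specificity, and the share over all genes tested was not taken. In whole testes, fewer cells of a type and less RNA per cell cannot be told apart.

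Several testis forms of general cell proteins were strict rises, of very different size. Arp53D (FBgn0011743, chromosome 2R, 16774246 to 16775676), an actin-related protein gene used in the male germline, had 37.7 and 39.6 FPKM in mip40/bam against 0.207 FPKM and a value listed at 0 in bam. Its log2 fold change was 5.17 (SE 0.11, limma adjusted p = 3.45e-09), the largest of the strict rises. The gene was not called in the authors' deposited table (log2 ratio 5.10, Cuffdiff q = 0.257). Its level in mip40/bam still lay below the 183 and 173 FPKM of wt and the 285 and 312 FPKM of the mip40 single mutant. Prosbeta2R2, a testis form of a proteasome core subunit, had 39.0 and 37.3 FPKM in mip40/bam against 1.88 and 1.0 FPKM in bam (log2 fold change 4.03, SE 0.16, limma adjusted p = 2.44e-07). Rpt6R, a testis form of a proteasome ATPase, had 26.3 and 23.5 FPKM against 4.23 and 4.55 FPKM (log2 fold change 2.26, SE 0.06). Rpn12R, a testis form of a lid subunit, had 2.21 and 3.74 FPKM against 0.360 and 0.204 FPKM (log2 fold change 1.61, SE 0.15). These 3 were the strict rises among 14 testis proteasome genes, only 5 of which reached 1 FPKM in any of the 4 libraries. Rpt4R, another testis form of a proteasome ATPase, was called as well, at 149 and 159 FPKM against 77.1 and 80.9 FPKM, but stayed under 2-fold (log2 fold change 0.95, SE 0.08).

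Further testis-type genes were strict rises, and were picked from the strict list after their values were seen. TrxT, a testis thioredoxin, had 39.1 and 37.6 FPKM in mip40/bam against 9.82 and 4.56 FPKM in bam (log2 fold change 2.34, SE 0.24). It had 1757 and 1734 FPKM in wt, so both groups were low. Hsp60C, a testis-enriched mitochondrial chaperonin, had 21.5 and 20.4 FPKM against 5.31 and 6.71 FPKM (log2 fold change 1.65, SE 0.12). LS2, a testis splicing factor related to U2AF, had 5.35 and 6.19 FPKM against 0.417 and 0.364 FPKM (log2 fold change 2.28, SE 0.09). Ntf-2r, a retroposed nuclear transport factor gene, had 26.5 and 32.2 FPKM against 10.9 and 6.82 FPKM (log2 fold change 1.65, SE 0.18). In none of these 4 did the groups overlap. Arpc3B, which encodes a form of an Arp2/3 complex subunit, had 79.9 and 68.9 FPKM in mip40/bam against 6.95 and 7.16 FPKM in bam (log2 fold change 3.22, SE 0.12, limma adjusted p = 1.45e-07), and among the other genotypes the mip40 single mutant was highest at 67.9 and 62.2 FPKM.

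Of 29 spermatid differentiation genes, 1 was called, the sperm tail gene Mst87F, and the median log2 difference of the list was -0.22. Mst87F had 20.1 and 18.1 FPKM in mip40/bam against 3.91 and 0.698 FPKM in bam (log2 fold change 2.80, SE 0.38, limma adjusted p = 0.000418), while wt had 7070 and 6218 FPKM. Of 15 cup and comet genes, which are transcribed after meiosis, none was called higher and 3 were called lower, a share near the 19.7% called lower of all genes tested. m-cup had 11.9 and 13.3 FPKM against 23.5 and 21.3 FPKM (log2 fold change -0.78, SE 0.09), and -0.31 after length adjustment. Other strict rises included the uncharacterised genes CG9406 and CG9875. CG9406 had 25.5 and 31.2 FPKM in mip40/bam against 0.507 and 0.291 FPKM in bam (log2 fold change 4.39, SE 0.22), with 184 and 154 FPKM in wt. CG9875 had 19.6 and 19.5 FPKM in mip40/bam and was listed at 0 in both bam libraries, with 223 and 224 FPKM in wt. It shares exons with another gene, and the log2 ratio of 4.34 in the authors' deposited table lay close to that of the per-library tables.

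**Figure D3:**
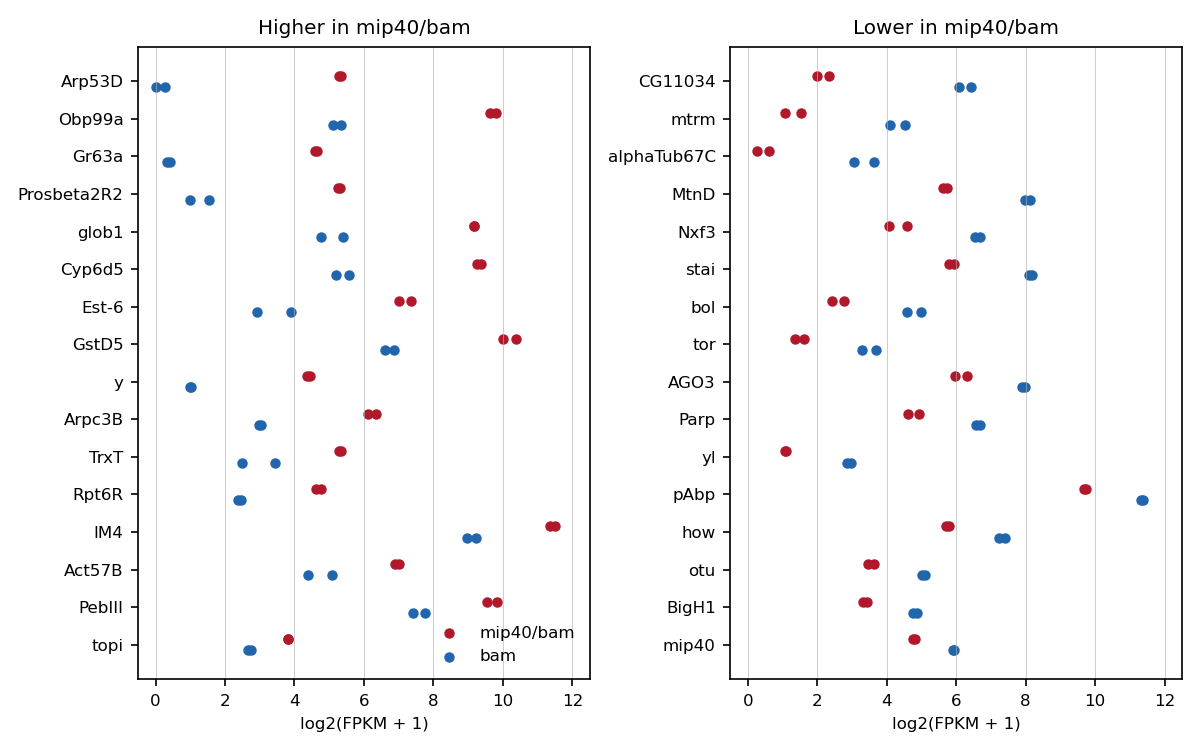
FPKM on the log2(FPKM + 1) scale (x axis) of 16 genes that were higher and 16 that were lower in mip40/bam by the strict rule, a point for each library, with mip40/bam in red above bam in blue. For each of these genes the pair of red points and the pair of blue points do not overlap.

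Among the regulators themselves, the 8 genes of the tMAC list moved in both directions: 2 were called higher and 3 lower, and with length adjustment also 2 and 3. Of all genes tested, 16.4% were called higher and 19.7% lower. topi, a zinc-finger subunit, had 13 and 13.2 FPKM in mip40/bam against 5.31 and 5.78 FPKM in bam (log2 fold change 1.10, SE 0.07, limma adjusted p = 7.3e-06), and vis, a homeodomain subunit, had 8.84 and 8.94 FPKM against 6.73 and 5.65 FPKM (log2 fold change 0.46, SE 0.13). aly had 11.5 and 11 FPKM in mip40/bam against 18.1 and 18.3 FPKM in bam (log2 fold change -0.65, SE 0.16, limma adjusted p = 0.0114). achi, the near-identical neighbour copy of vis, had 9.08 and 9.19 FPKM against 17.1 and 16.5 FPKM (log2 fold change -0.81, SE 0.17), and since reads of achi and vis can be shared between the copies their split is uncertain. The fifth called gene was mip40 itself. comr and tomb were listed at 0 in all 4 libraries, and wuc stayed under 1 FPKM. In the authors' deposited table tomb, which shares exons, had 2.43 FPKM in mip40/bam and 7.51 FPKM in bam, so its 0 in the per-library tables does not show silence.

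Of the tTAF genes, can and sa were close to silent in both groups. can had 0.309 and 0.220 FPKM in mip40/bam against 0.301 and 0.278 FPKM in bam, and sa had at most 0.0888 FPKM in any of the 4 libraries. mia, which encodes a form of TAF6, was called higher, at 31.9 and 31.6 FPKM against 20.2 and 20.1 FPKM (log2 fold change 0.63, SE 0.09). nht, a form of TAF4, was called lower, at 4.96 and 5.02 FPKM against 7.88 and 10.9 FPKM (log2 fold change -0.78, SE 0.24), and so was the testis bromodomain gene tbrd-1, at 1.66 and 2.58 FPKM against 3.48 and 3.86 FPKM (log2 fold change -0.59, SE 0.14). Taf12L, a TAF12 paralogue whose naming here followed a look at its values, fell more, to 12.6 and 14.6 FPKM in mip40/bam against 31.8 and 32.6 FPKM in bam (log2 fold change -1.19, SE 0.09).

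Of 12 dREAM genes, 3 were called higher and 3 lower, and with length adjustment 6 were higher and none was lower. The median log2 difference of the list was 0.25, and 0.37 after adjustment, beside 0.00 over all genes tested. Rbf, the fly retinoblastoma protein gene, had 54.3 and 55.8 FPKM in mip40/bam against 37.2 and 38.2 FPKM in bam (log2 fold change 0.54, SE 0.08, limma adjusted p = 0.000695). E2f2, a repressive E2F, had 28.7 and 27.1 FPKM against 19.7 and 20.6 FPKM (log2 fold change 0.45, SE 0.07). mip130, a subunit that partners mip120, had 34.7 and 34.3 FPKM against 21.5 and 23.2 FPKM (log2 fold change 0.61, SE 0.17). Dp, the dimer partner of E2F proteins, was lower, at 71.1 and 75.3 FPKM against 113 and 96.5 FPKM (log2 fold change -0.50, SE 0.13). Each of these changes was smaller than 2-fold.

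Genes of the early germline were among the falls. AGO3 (FBgn0250816, chromosome 3L, 23554593 to 23689640), a Piwi-family protein of the piRNA amplification cycle, had 61.8 and 77.8 FPKM in mip40/bam against 251 and 235 FPKM in bam (log2 fold change -1.79, SE 0.16, limma adjusted p = 4.92e-05). Of 18 genes of the piRNA pathway, which silences transposons in the germline, 10 were called lower and 1 higher, beside 19.7% and 16.4% of all genes. With length adjustment 7 were lower and none higher, beside 10.3% and 10.9%. rhi, which marks piRNA clusters, had 51.3 and 58.9 FPKM against 126 and 100 FPKM (log2 fold change -1.02, SE 0.19, and -1.23 with length adjustment). armi, an RNA helicase, had 46.3 and 50.5 FPKM against 115 and 112 FPKM (log2 fold change -1.21, SE 0.13, and -0.64 with length adjustment). piwi, which shares exons with another gene, had 121 and 147 FPKM in mip40/bam against 187 and 202 FPKM in bam and did not pass the test (log2 difference -0.54, SE 0.89, limma adjusted p = 0.804). aub had 140 and 150 FPKM against 273 and 223 FPKM (log2 difference -0.76, SE 1.34, limma adjusted p = 0.828). The pooled spread of both genes included uneven pairs in other genotypes, with piwi listed at 0 and at 11.8 FPKM in comr and aub at 47.9 FPKM and listed at 0 in can. aub passed in the fit of the 4 libraries alone (limma adjusted p = 0.0461).

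bol, a translational regulator of meiotic entry, had 4.38 and 5.82 FPKM in mip40/bam against 31.0 and 22.9 FPKM in bam (log2 fold change -2.19, SE 0.15, limma adjusted p = 8.55e-06), and 697 and 713 FPKM in wt. Of 8 genes of meiotic entry and divisions, 5 were called lower and none higher, and 4 were lower with length adjustment. mei-P26, which limits germline proliferation, had 9.54 and 10.6 FPKM against 45.8 and 39.4 FPKM (log2 fold change -1.98, SE 0.09), but its transcript is 23041 bases long and the change was -0.39 after adjustment. Among 15 genes of germline stem cells and spermatogonia, 7 were called lower and 1 higher, and with adjustment 3 and 1. Of all genes, 19.7% were called lower, and 10.3% with adjustment, so few calls of these short lists lie beyond that share after adjustment. otu, a deubiquitinase needed in the germline, had 11.3 and 10.1 FPKM in mip40/bam against 33.1 and 31.3 FPKM in bam (log2 fold change -1.50, SE 0.20). ovo, a zinc-finger regulator of the female germline, had 12.4 and 14.3 FPKM against 45.8 and 45.5 FPKM (log2 fold change -1.71, SE 0.14), and -0.81 after adjustment. how, an RNA-binding protein that maintains dividing spermatogonia, had 51.3 and 54.6 FPKM against 169 and 149 FPKM (log2 fold change -1.57, SE 0.20). It was named after its values were seen.

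Several genes best known from oocytes were among the strict falls. mtrm, a Polo inhibitor of female meiosis (FBgn0010431, chromosome 3L, 8413012 to 8414103), had 1.11 and 1.92 FPKM in mip40/bam against 21.9 and 16.1 FPKM in bam (log2 fold change -2.99, SE 0.25, limma adjusted p = 3.26e-05). alphaTub67C, the maternal alpha-tubulin, had 0.198 and 0.543 FPKM against 11.4 and 7.28 FPKM (log2 fold change -2.90, SE 0.35), and gammaTub37C, the maternal gamma-tubulin, had 2.66 and 4.48 FPKM against 8.88 and 12.4 FPKM (log2 fold change -1.36, SE 0.26). fs(1)M3, an eggshell protein of the terminal system, had 0.515 and 0.694 FPKM against 6.84 and 6.5 FPKM (log2 fold change -2.26, SE 0.20). tor, the receptor that acts in that system, had 1.59 and 2.06 FPKM against 12.0 and 8.73 FPKM (log2 fold change -2.0, SE 0.17). yl, the yolk protein receptor, had 1.15 and 1.11 FPKM against 6.21 and 6.88 FPKM (log2 fold change -1.83, SE 0.12). exu, an RNA-localising protein, had 8.63 and 12.4 FPKM against 26.4 and 24.9 FPKM (log2 fold change -1.23, SE 0.13), while wt testes had 1253 and 1291 FPKM.

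As a whole the oogenesis and eggshell list did not go one way. Of its 19 tested members 2 were called higher and 4 lower, with a median log2 difference of -0.02, and 14 members reached 1 FPKM in any of the 4 libraries. Yp3, a yolk protein, went the other way, at 35.5 and 35.8 FPKM in mip40/bam against 12.2 and 11.3 FPKM in bam (log2 fold change 1.52, SE 0.23). mtrm, alphaTub67C, gammaTub37C and fs(1)M3 are not on that list; they come from the strict falls and were grouped after their values were seen.

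**Figure D4:**
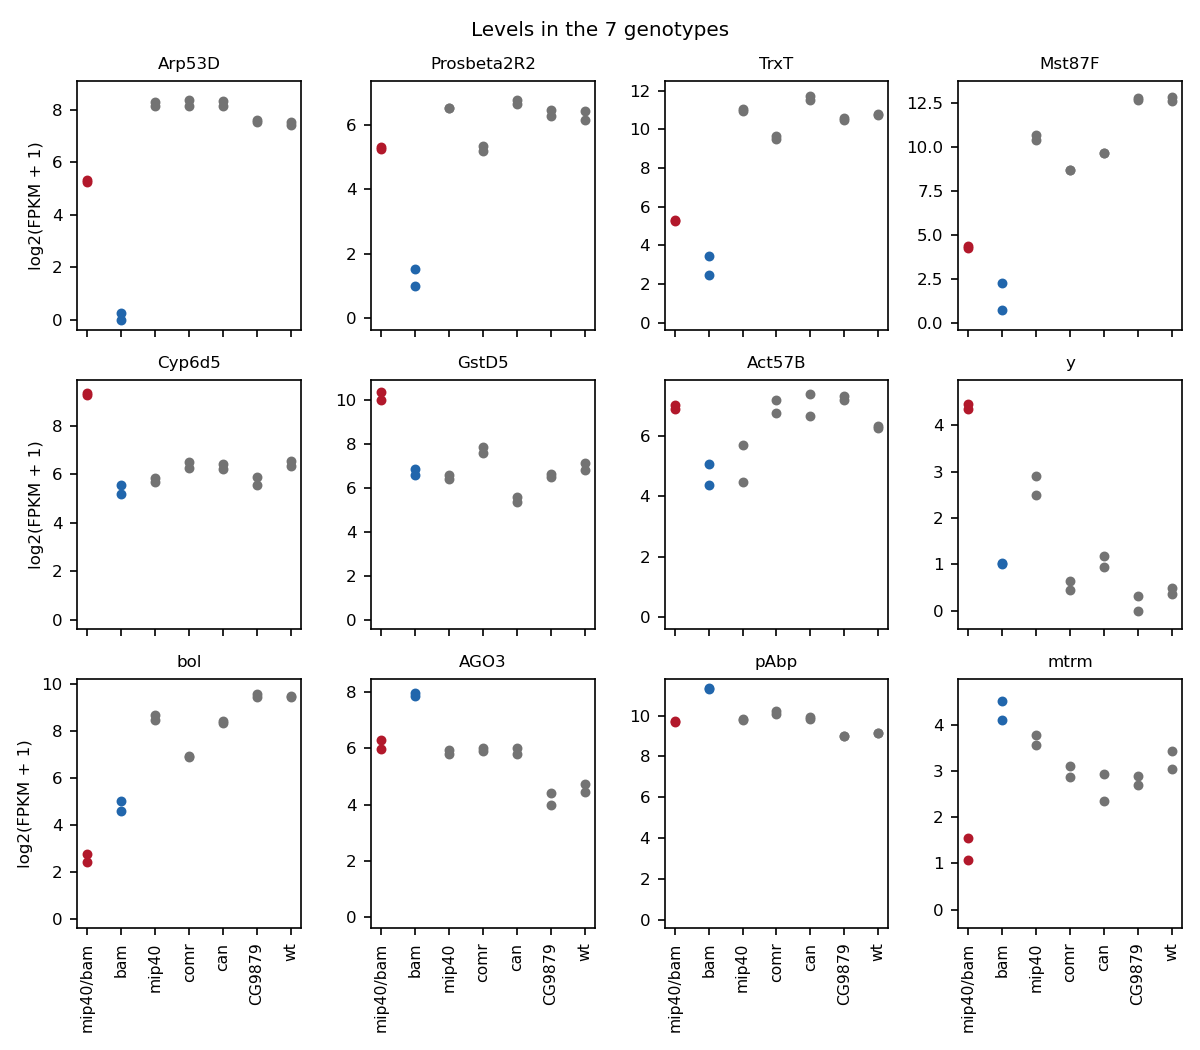
FPKM on the log2(FPKM + 1) scale (y axis) of 12 genes in the 7 genotypes, a point for each library, with mip40/bam in red and bam in blue. Arp53D, Prosbeta2R2, TrxT and Mst87F lie higher in mip40/bam than in bam but below wt, Cyp6d5, GstD5 and y are highest in mip40/bam, and AGO3, pAbp and mtrm are highest in bam.

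Other strict falls are given as single genes, some of them chosen after their values were seen. pAbp, the cytoplasmic poly(A)-binding protein, was the most abundant of the strict falls, with 817 and 858 FPKM in mip40/bam against 2654 and 2566 FPKM in bam (log2 fold change -1.64, SE 0.06, limma adjusted p = 1.51e-07). Paip2, an inhibitor of that protein, had 26.9 and 26.3 FPKM against 66.0 and 61.2 FPKM (log2 fold change -1.23, SE 0.06). Nxf3, a nuclear export factor of piRNA precursors, had 15.6 and 22.8 FPKM against 102 and 92.1 FPKM (log2 fold change -2.30, SE 0.21). stai, the fly stathmin, which destabilises microtubules, had 54.0 and 60.3 FPKM against 288 and 275 FPKM (log2 fold change -2.28, SE 0.12). BigH1, an embryonic and germline linker histone, had 9.05 and 9.90 FPKM against 26.2 and 28.5 FPKM (log2 fold change -1.44, SE 0.11). Parp, the poly(ADP-ribose) polymerase, had 23.7 and 29.5 FPKM against 94.5 and 101 FPKM (log2 fold change -1.85, SE 0.14). Apart from CG11854, the largest strict fall was that of CG11034, an uncharacterised gene, with 4.10 and 3.01 FPKM in mip40/bam against 67.2 and 84.8 FPKM in bam (log2 fold change -4.08, SE 0.24).

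Of 7 tested BBSome and intraflagellar transport genes, grouped after their values were seen, 2 were called higher and 3 lower, with a median log2 difference of -0.47, and of 0.00 after length adjustment. BBS1, part of the BBSome, had 10 and 12.4 FPKM in mip40/bam against 0.128 and 0.0758 FPKM in bam (log2 fold change 3.47, SE 0.14), and Osm6, an intraflagellar transport gene, had 27.9 and 28.4 FPKM against 7.85 and 7.14 FPKM (log2 fold change 1.78, SE 0.18). Strict falls in the same group were Oseg5 and Oseg2. Oseg5 had 0.493 and 0.121 FPKM in mip40/bam against 15.7 and 17.0 FPKM in bam (log2 fold change -3.74, SE 0.29), and Oseg2 had 1.90 and 2.39 FPKM against 9.77 and 9.52 FPKM (log2 fold change -1.76, SE 0.14). Gr63a, a carbon dioxide receptor of the antenna, had 23.2 and 23.9 FPKM in mip40/bam against 0.347 and 0.261 FPKM in bam (log2 fold change 4.24, SE 0.19). It was also at 75.3 and 90.1 FPKM in the mip40 single mutant but at 0.214 and 0.402 FPKM in wt.

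The muscle list had 12 of 17 members called higher and 2 lower, with 12 higher and none lower after length adjustment, and a median log2 difference of 1.26 (1.19 after adjustment). Muscle sheaths the fly testis. Act57B, a muscle actin, had 127 and 118 FPKM in mip40/bam against 19.9 and 32.8 FPKM in bam (log2 fold change 2.22, SE 0.40, limma adjusted p = 0.00203). Mp20, a muscle calponin, had 72.8 and 60.6 FPKM against 13.2 and 19.6 FPKM (log2 fold change 1.98, SE 0.31), and Mlc2, a myosin light chain, had 57.5 and 55.0 FPKM against 12.4 and 15.8 FPKM (log2 fold change 1.93, SE 0.32). Summed over the 18 muscle genes, the level was 812 and 734 FPKM in mip40/bam, 429 and 514 FPKM in bam and 672 FPKM in each wt library. The wt sums carry the scaling difference given above, and with median-of-ratios scaling they lie above those of mip40/bam. The basement membrane collagens vkg and Cg25C moved with them, with vkg at 19.6 and 23.8 FPKM against 5.94 and 7.37 FPKM (log2 fold change 1.57, SE 0.38) and Cg25C at 28.2 and 31.4 FPKM against 9.65 and 12.1 FPKM (log2 fold change 1.38, SE 0.34). The part of muscle or sheath tissue in other rises was not tested.

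Genes of the ejaculatory duct and bulb went both ways, and no listed accessory gland gene was called higher. Est-6, a seminal esterase, had 127 and 161 FPKM in mip40/bam against 6.58 and 14.0 FPKM in bam (log2 fold change 3.76, SE 0.42, limma adjusted p = 0.000147). PebIII, an ejaculatory bulb protein, had 916 and 738 FPKM against 169 and 217 FPKM (log2 fold change 2.10, SE 0.25), and Gld, glucose dehydrogenase of the male reproductive tract, had 13.3 and 14.8 FPKM against 1.75 and 1.37 FPKM (log2 fold change 2.56, SE 0.19). These were the 3 called rises of 21 tested members, a share near the 16.4% called higher of all genes tested. PebII, an ejaculatory bulb gene outside the list, was a strict fall, listed at 0 in both mip40/bam libraries with 13.9 and 1.29 FPKM in bam. Of the same list 2 members were called lower, beside 19.7% of all genes tested. The pooled spread of accessory gland genes includes 4 libraries of other genotypes with such transcripts. SP, the sex peptide, had 9.32 and 13 FPKM in mip40/bam against 41.5 and 63.9 FPKM in bam (log2 difference -2.13, SE 4.41, limma adjusted p = 0.882), and without those 4 libraries it passed (limma adjusted p = 0.00955). Acp26Aa, another secreted peptide, had 1.05 and 1.38 FPKM against 3.56 and 10.7 FPKM (log2 difference -1.72, SE 2.81, limma adjusted p = 0.802). Sfp87B, a seminal fluid protein, was listed at 0 in both mip40/bam libraries and had 9.48 and 2.36 FPKM in bam. The median log2 difference of the list was -1.10, so its median and its 3 strict rises differ in sign. The whole list summed to 1155 and 1023 FPKM in mip40/bam and 378 and 646 FPKM in bam, and the part of tissue dissected with the testes in other results was not tested.

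Of 19 antimicrobial and immune genes, 5 were called higher and 1 lower, with a median log2 difference of -0.02, and of -0.40 after length adjustment. IM4, IM14 and TotM are strict rises named after their values were seen. IM4, an immune-induced peptide of the haemolymph, had 2625 and 2876 FPKM in mip40/bam against 498 and 598 FPKM in bam (log2 fold change 2.33, SE 0.17, limma adjusted p = 1.32e-05), the third-highest level in mip40/bam of the strict rises, after GstS1 and Obp44a. IM14, a related peptide, had 2420 and 2695 FPKM against 628 and 500 FPKM (log2 fold change 2.19, SE 0.17). CecA1, an antibacterial cecropin, had 31.6 and 38.8 FPKM against 2.95 and 8.63 FPKM (log2 fold change 2.54, SE 0.36), and TotM, a stress-induced peptide, had 42.0 and 57.2 FPKM against 7.41 and 14.4 FPKM (log2 fold change 2.14, SE 0.36). NimC1, a phagocytosis receptor of blood cells, rose to 3.42 and 4.05 FPKM in mip40/bam against 0.876 and 1.33 FPKM in bam, whereas Hml, a clotting protein of the same cells, was lower, at 1.54 and 1.28 FPKM against 3.79 and 5.31 FPKM (log2 fold change -1.19, SE 0.17, and -0.29 after adjustment).

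Of 32 glutathione S-transferase genes tested, which serve detoxification, 19 were called higher and none lower, beside 16.4% and 19.7% of all genes. In the shortest length class above, 61.0% of genes were called higher and 1.62% lower. Calls of the family with length adjustment were not counted. By the strict rule 5 were higher, beside 3.11% of the genes it covered. The median log2 difference of the family was 0.55, and 0.20 after length adjustment, and the family was examined after its members appeared among the rises. GstD5 (FBgn0010041, chromosome 3R, 12375733 to 12376572) had 1032 and 1316 FPKM in mip40/bam against 95.5 and 115 FPKM in bam (log2 fold change 3.46, SE 0.17, limma adjusted p = 8.83e-07). GstS1 had 7356 and 7137 FPKM against 2531 and 3102 FPKM (log2 fold change 1.37, SE 0.14). Among 68 cytochrome P450 genes 12 were called higher and 8 lower, with a median of 0.00, beside 16.4% higher and 19.7% lower of all genes tested. Cyp6d5 had 614 and 665 FPKM in mip40/bam against 35.5 and 46.7 FPKM in bam (log2 fold change 3.94, SE 0.17), above the 45.9 to 93.3 FPKM of the other 10 libraries. Cyp6a8 went the other way, at 1.93 and 2.60 FPKM against 9.34 and 60.0 FPKM (log2 fold change -2.95, SE 0.66), with bam libraries that lay far apart. Of the 5 metallothioneins, which bind metals, MtnD had 52.2 and 48.6 FPKM in mip40/bam against 277 and 251 FPKM in bam (log2 fold change -2.37, SE 0.55, limma adjusted p = 0.00839) and MtnE had 7.54 and 8.33 FPKM against 39.2 and 36.6 FPKM (log2 fold change -2.12, SE 0.31). MtnA, the most abundant, had 39135 and 35096 FPKM against 21407 and 28396 FPKM and did not pass (log2 difference 0.59, SE 0.26, limma adjusted p = 0.114).

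Secreted carriers and pigment genes were further strict rises and falls, picked after their values were seen. Obp99a and Obp44a, odorant-binding proteins, had 890 and 783 FPKM in mip40/bam against 33.3 and 39.5 FPKM in bam (log2 fold change 4.49, SE 0.14) and 5422 and 4848 FPKM against 743 and 791 FPKM (log2 fold change 2.74, SE 0.16). glob1, a haemoglobin of the tracheal system and fat body, had 569 and 579 FPKM against 26.2 and 40.8 FPKM (log2 fold change 4.09, SE 0.27). y, which is needed for black cuticle pigment, had 20.8 and 19.4 FPKM against 1.03 and 1.0 FPKM (log2 fold change 3.39, SE 0.18), and t, which returns the conjugated form of dopamine to dopamine, had 28.0 and 24.8 FPKM against 6.13 and 7.78 FPKM (log2 fold change 1.79, SE 0.17). e, which makes that conjugate, was lower, at 4.21 and 3.35 FPKM against 17.6 and 21.0 FPKM (log2 fold change -2.09, SE 0.35), as was Pu, a pteridine enzyme, at 2.20 and 1.44 FPKM against 8.89 and 13.1 FPKM (log2 fold change -2.08, SE 0.25). w, the eye pigment transporter, had 6.87 and 5.96 FPKM in mip40/bam against 1.42 and 1.12 FPKM in bam (log2 fold change 1.71, SE 0.18). y and w are common marker genes of fly stocks; the stocks' genotypes at them are not stated.

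The large housekeeping lists rose, and in the 2 ribosomal protein lists little of the rise was left after length adjustment. Of 93 cytoplasmic ribosomal protein genes, 74 were called higher and 1 lower with a median log2 difference of 0.48, and after length adjustment 9 were higher and 12 lower with a median of -0.03. For 71 mitochondrial ribosomal proteins the counts were 47 higher and 1 lower (median 0.62), and 8 and 1 (median 0.13) after adjustment. Oxidative phosphorylation kept more of its rise: 29 of 32 genes were called higher and none lower (median 0.70), and 16 and none (median 0.29) after adjustment. CoVIII, a cytochrome c oxidase subunit, had 1012 and 984 FPKM in mip40/bam against 328 and 454 FPKM in bam (log2 fold change 1.37, SE 0.16, and 0.67 after adjustment). General proteasome subunits were similar, with 25 of 31 called higher and 1 lower (median 0.59), and 14 and 1 (median 0.25) after adjustment. Prosbeta6 had 529 and 518 FPKM against 244 and 247 FPKM (log2 fold change 1.09, SE 0.10, and 0.60 after adjustment). None of these 4 lists held a gene that passed the strict rule.

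Lists of long transcripts fell, and these falls were smaller after length adjustment. Of 27 genes of JAK-STAT, BMP, EGFR and Notch signalling, 11 were called lower and none higher (median -0.29), and with length adjustment 5 were lower and 2 higher (median -0.07). N, the Notch receptor, had 7.57 and 7.95 FPKM in mip40/bam against 22.6 and 17.5 FPKM in bam (log2 fold change -1.25, SE 0.15), and -0.15 after adjustment. aos, a secreted EGFR inhibitor, kept its fall, with 2.03 and 2.21 FPKM against 6.47 and 5.51 FPKM (log2 fold change -1.16, SE 0.16, and -0.98 after adjustment). Of 17 hub and cyst cell genes, which mark the somatic support cells of the germline, 8 were called lower and 1 higher, and 3 and 1 after adjustment. chinmo, which maintains the male identity of cyst stem cells, had 5.06 and 5.87 FPKM against 23.6 and 20.9 FPKM (log2 fold change -1.84, SE 0.11, and -0.66 after adjustment). eya, needed in differentiating cyst cells, was the called rise, at 22.6 and 21.8 FPKM in mip40/bam against 12.0 and 14.4 FPKM in bam (log2 fold change 0.71, SE 0.11). tj, a cyst cell factor, did not pass (log2 difference -0.38, SE 0.21, limma adjusted p = 0.232). Among 22 neuron genes 8 were called lower and 1 higher, and 4 and 2 after adjustment.

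Cell cycle lists showed no shift that held on both scales. Of 37 DNA replication genes, 10 were called higher and 6 lower (median -0.01), and 1 and 2 after length adjustment (median 0.13). Psf1, a GINS subunit, had 56.0 and 51.8 FPKM in mip40/bam against 26.9 and 23.4 FPKM in bam (log2 fold change 1.07, SE 0.21, and 0.48 after adjustment), and dap, a Cdk inhibitor, had 29.2 and 28.7 FPKM against 49.3 and 40.4 FPKM (log2 fold change -0.61, SE 0.14). Of 36 mitotic genes, 6 were called higher and 12 lower (median -0.12), and 7 and 1 after adjustment (median 0.13). Among 13 genes of histone variants and chromatin assembly 3 were higher and 3 lower, of 17 heat shock genes 4 were higher and 2 lower, and of 11 photoreceptor genes 2 were higher and 2 lower. Of 9 apoptosis genes 1 was called higher and 3 lower; Corp, a p53 target, had 4.06 and 3.39 FPKM against 18.3 and 14.1 FPKM (log2 fold change -1.86, SE 0.25). Among 12 fat body genes 2 were higher and 3 lower. Of all genes tested, 16.4% were called higher and 19.7% lower, and 10.9% and 10.3% with length adjustment. The counts of these small lists are described only.

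**Figure D5:**
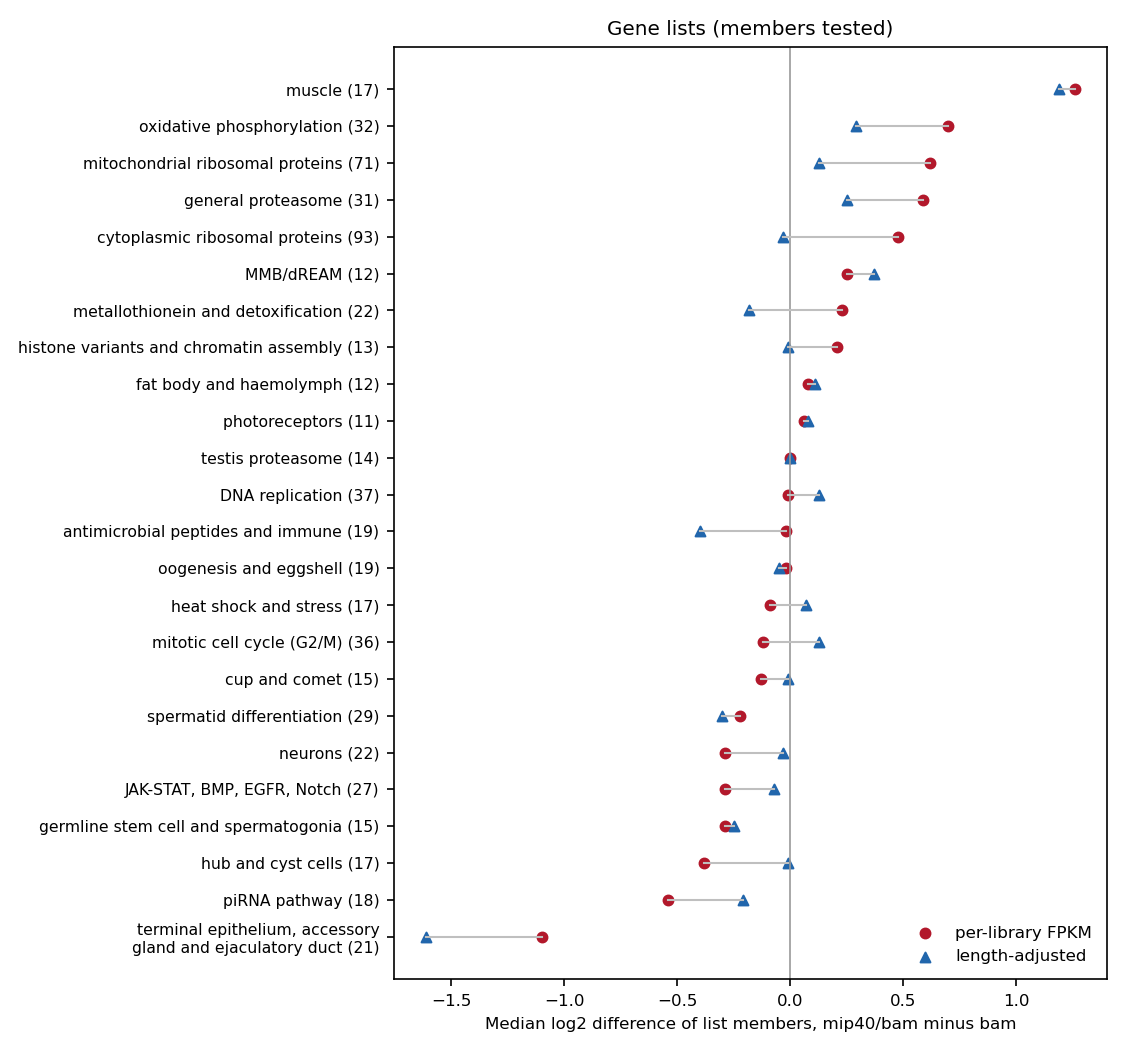
Median log2 difference of mip40/bam minus bam (x axis) for the gene lists with at least 10 tested members, with the number tested in brackets, from the per-library FPKM (red circles) and with length adjustment (blue triangles). The medians of cytoplasmic ribosomal proteins move from 0.48 to -0.03 with adjustment, while that of muscle stays above 1.

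The mip40 mutation was also present without the bam mutation, in mip40 against wt, a comparison that shares no library with the one above. Of the 332 strict rises, 131 (39.5%) were called higher and 85 (25.6%) lower in mip40 against wt, beside 47.8% and 25.4% of all genes tested. Of the 167 strict falls, 71 (42.5%) were called higher and 32 (19.2%) lower there. As shares of the calls of mip40 against wt, the shared genes were 2.11% and 2.58% for the rises, and 1.14% and 0.97% for the falls. These directions depended on scaling. With median-of-ratios scaling, which moved the median change of genes of at least 5 FPKM in mip40 against wt by -1.06, 25.4% of all genes were higher and 41.3% lower there, and the strict rises were higher in 18.7% and lower in 53.6% of cases and the strict falls higher in 19.2% and lower in 38.3%. On that scale the lower share of the rises exceeded the background, and on the FPKM scale it lay near it, so no common direction is drawn. Of 12971 genes, 9084 (70.0%) had a called interaction, a difference between the 2 contrasts, and 8172 with median-of-ratios scaling. With the filter on the 4 libraries, which tests fewer genes, it was 6318. The term includes the length trend of mip40/bam against bam, and no count with length adjustment is given. It also includes the spermatid RNA of mip40 and wt testes. The 29 spermatid differentiation genes summed to 15153 and 16904 FPKM in mip40 and 59507 and 57810 FPKM in wt.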

How the data were processed

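TruSeq libraries of polyadenylated testis RNA were read on a MiSeq, per the labels. TopHat, Cufflinks and Cuffdiff and the builds dm3 and dm6 are named without roles, per the submitters' processing notes; tool versions and strand use: not given in the sources used here. Per gene and library the authors deposited FPKM, and they deposited a Cuffdiff table of mip40/bam against bam with FPKM, p-values and q-values per transcript. From it, FPKM values were summed per gene, and log2 ratios were taken with 1 added; the other deposited comparison tables were not used here. An exact 0 in FPKM can be a failed estimate, so such genes are said to be listed at 0.

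The 2 annotations (17480 genes in mip40/bam and CG9879, 16745 in the rest) were joined by symbol to 16078 genes. Positions printed are those of the files; the 15814 genes found in BDGP6.54 all lay at an overlapping place there. Depth implied by the FPKM intervals was 7690000 and 7140000 fragments in mip40/bam and 4910000 and 4460000 in bam, so low levels are less certain in bam. Summed FPKM was 1297043 and 1290901 in mip40/bam and 917233 and 954893 in bam; CG18628 held 21.7% and 20.2% of it in mip40/bam, and 11.0% and 16.0% in bam.

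Genes with at least 1 FPKM in at least 2 libraries were fitted with limma 3.58.1 (R 4.3.3) on log2(FPKM + 1) over all 14 libraries and 7 groups (7 residual degrees of freedom, prior 1.82), two-sided, with Benjamini-Hochberg adjustment over all genes. This scale understates changes of low genes, and p-values rest on a spread pooled over genotypes. Length adjustment took a loess trend (span 0.3) on transcript length, fitted to genes of at least 5 FPKM, out of the 4 libraries. On simulated data (12802 genes), 200 genes expressed in bam were changed, the rest were left equal, and the noise was normal and independent. There 81% of 2-fold and 93% of 4-fold changes were called in this comparison, and 4.9% of calls were false. The simulation held no length trend and no difference of annotation, so these shares do not describe the real calls.

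The members and the 29 lists were chosen with earlier results of these data known; 28 list entries had no joined gene. Named genes were mip40, bam, up to 4 called changes per list, the largest changes among protein-coding genes of at least 5 FPKM with the same start and end in both annotations, 6 with opposite changes in both backgrounds, and the 5 highest called 2-fold genes. The same rule was then applied to strict genes. Other genes were added after their values were seen, among them zpg, vas, can, sa, comr, tomb, wuc, vis, piwi, aub, tj, eya, Acp26Aa, SP, MtnA, MtnE, IM14, TotM, vkg, Cg25C, Osm6, Oseg2, pAbp, Paip2, Parp, Amy-d, Amy-p and sisA. Genes that share exons, near-identical copies (achi and vis, Amy-d and Amy-p) and antisense genes cannot be separated with certainty; among those named, Obp44a, Est-6, BBS1, Oseg5, bol, AGO3, otu, ovo, armi, exu, yl, fs(1)M3, Nxf3, Act57B, Mst87F, Dp, E2f2, mip130, tbrd-1, unc-13, CG9875 and CG11854 share exons. Alternatives were other scalings, pseudocounts, filters, fits, gene sets and leaving out each library. No promoter or protein sequences were used here. Python 3.11.15, pandas 2.3.3 and matplotlib 3.10.9 made tables and plots.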

Additional observations from a re-analysis of the deposited data

Results flagged for a closer look

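The contrast of mip40/bam against bam differed from that of mip40 against wt, by an interaction term, in 9084 genes (limma adjusted p under 0.05). The count was 8172 with median-of-ratios scaling and 6318 with the filter on the 4 libraries. Length trend, scaling and the cells present also enter this term, so it is no count of genes that respond to mip40 differently. Among genes called in opposite directions in the 2 backgrounds, the 6 with the lowest interaction p were CG2118 (interaction 10.67 on the log2 scale), Ant2 (9.00), Tim10 (9.44), CG8067 (8.65), CG9875 (6.08) and CG32176 (-6.50). All 6 share exons with another gene, and each is listed at 0 in both libraries of at least 1 group, so these sizes are no bounds. CG2118 and CG8067 were listed at 0 in both bam and both mip40 libraries, while CG2118 had 46.0 and 46.6 FPKM in mip40/bam and 33.4 and 33.6 FPKM in wt, and its log2 ratio was 0.41 in the authors' deposited table. Ant2 and Tim10 were listed at 0 in bam only. CG32176 had 24.7 and 25.8 FPKM in mip40/bam, 33.9 and 31.5 FPKM in bam and 71.8 and 67.6 FPKM in mip40, and was listed at 0 in both wt libraries. CG9875 alone passed the strict rule in mip40/bam against bam, and had 66.5 and 67.7 FPKM in mip40 against 223 and 224 FPKM in wt. The part of the annotation in these differences was not tested.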

How the results depend on the processing

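The count of 4682 called genes was 4101 to 4805 under other scalings, a pseudocount of 0.1, other filters, the fit of the 4 libraries alone and genes with the same start and end, and 3415 to 4151 without single libraries. It was 2829 (1258 higher, 1571 lower) among protein-coding genes that share no exon, where fewer genes were tested. With length adjustment it was 2695 (1387 higher, 1308 lower), 2208 (1173 and 1035) with the 4 libraries alone, and 2573 (1335 and 1238) with the replicate block. At equal summed FPKM without CG18628, 1144 genes were higher and 3344 lower, a split of calls that this scaling moved; it shifted the median of genes of at least 5 FPKM by -0.27, while median-of-ratios scaling shifted it by 0.04. Without single libraries, 1484 to 1835 genes were higher, 1931 to 2316 lower and 8482 to 8794 had an interaction. The strict rises were 254 to 341 and the strict falls 108 to 170 over the alternatives; the 108 were with a pseudocount of 0.1, and the cause was not tested. mip40 RNA stayed lower in each alternative, from -1.07 to -1.56. Of the named genes' values over all alternatives, 4693 kept their side of the threshold, 365 lost the call, 18 gained it and 8 reversed. The 4693 include changes of sign in genes not called in either fit. One such gene was bam, at -0.15 in the main fit, 0.45 with quantile normalization and 0.68 with a pseudocount of 0.1. Calls were lost for 31 genes with the 4 libraries alone, 29 with length adjustment and 78 with both. f-cup reversed to 0.10 and l(3)mbt to 0.49 with each length adjustment, and Hsp27 to -0.05 with quantile normalization. bam was 0.84 without bam replicate 1 and -1.13 without bam replicate 2. Replicate numbers shared by the groups did not pair the libraries (correlation of deviations -0.000266), and a fit with the replicate block called 4621 genes. The search for promoter motifs was not run. Low genes are limited by depth, more so in bam.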

Other observations

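Of 88 tested genes on the small chromosome 4, 53.4% were called lower and 2.27% higher in mip40/bam, beside 19.7% and 16.4% of all genes. Its genes have a median transcript of 3625 bases, against 1642 over all genes, and with length adjustment 29.9% were lower and 5.75% higher, beside 10.3% and 10.9%. By the strict rule 3 were lower and none higher. unc-13, a synaptic gene on this chromosome, had 4.3 and 4.21 FPKM in mip40/bam against 13.5 and 13.3 FPKM in bam (log2 fold change -1.45, SE 0.13), and -0.29 after adjustment.

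CG18628, a short gene, had the highest FPKM in the 4 libraries, with 281265 and 261208 in mip40/bam against 100628 and 152369 in bam. The difference on the log2 scale, 1.13 (SE 0.26, limma adjusted p = 0.0081), was 0.36 after length adjustment.

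The digestive amylases Amy-p and Amy-d, near-identical copies, had 148 and 190 FPKM in mip40/bam against 51.8 and 69.0 FPKM in bam, and 151 and 214 FPKM against 27.2 and 72.1 FPKM. In CG9879 both stayed under 1 FPKM. sisA, an early sex-determination gene, was uneven between replicates, at 53.5 and 20.2 FPKM in mip40/bam against 4.76 and 3.74 FPKM in bam. Z600, an embryonic mitotic inhibitor, had 10.8 and 11.8 FPKM in mip40/bam and was listed at 0 in the other 12 libraries; it shares exons with another gene.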
